A study of Oryctolagus cuniculus with 49 samples.

Results

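The genes described here encode enzymes of xenobiotic and retinoid metabolism, measured by RNA sequencing in rabbit iris with ciliary body. They were taken by symbol alone, from the families of cytochromes P450 (CYP), aldehyde dehydrogenases (ALDH), alcohol dehydrogenases (ADH), aldo-keto reductases (AKR), retinol dehydrogenases (RDH), short-chain dehydrogenases (DHRS), glucuronosyltransferases (UGT), sulfotransferases (SULT), flavin monooxygenases (FMO) and carboxylesterases (CES). CYP26C1 and CYP51A1 were left out by the same rule. This gave 52 of the 12948 genes measured: 14 CYP, 13 ALDH, 6 DHRS, 5 RDH, 3 each of ADH, AKR, FMO and UGT, and 1 each of CES and SULT. For 13 of the 52, CES1 and CYP1B1 among them, the deposited table holds a locus number, and the symbol came from the RefSeq gene table.

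All animals were New Zealand white rabbits, a laboratory breed, and carried no genetic change named in the labels. The surgery was lensectomy, removal of the lens, followed by insertion of an artificial intraocular lens. Unoperated eyes came from rabbits of 5 weeks (7 libraries) and 6 months (7 libraries), and operated eyes from rabbits of 5 weeks (3 libraries), 6.5 weeks (3 libraries) and 6 months (6 libraries). The 2 young operated groups are called operated juveniles when pooled, and their mean was set against unoperated 5-week eyes. Neither the time between surgery and sampling nor the number of animals is given in the labels, and there is no unoperated group of 6.5 weeks. Each library carries a number of its own, but nothing says that libraries came from separate animals, so p-values measure only the spread between these samples.

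Drugs and other foreign compounds are cleared in steps. Cytochromes P450, flavin monooxygenases and carboxylesterases oxidize or hydrolyse them, and glucuronosyltransferases and sulfotransferases attach a sugar or sulfate that makes them soluble. The same families handle the body's own compounds: retinol is oxidized to retinal by alcohol and retinol dehydrogenases, retinal to retinoic acid by the ALDH1A enzymes, and retinoic acid is broken down by CYP26 enzymes, while other members act on sterols, fatty aldehydes and amino acids. The ciliary epithelium, which secretes the aqueous humour and forms part of the blood-aqueous barrier, is known as the main site of drug metabolism in the front of the eye.

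Values are FPKM, the fragments of a transcript scaled to its length and to all mapped fragments of the library, so levels of different genes can be set side by side. The sum over all genes was 431240 to 456590 in unoperated and 476370 to 504200 in operated 6-month libraries. The lens crystallin CRYAA ran from 0 to 16756 FPKM and exceeded 1000 FPKM in 8 libraries: 4 unoperated 5-week, 1 operated 5-week, 1 unoperated 6-month and 2 operated 6-month ones. Cell type markers moved with surgery too. Of 7 measured markers of ciliary epithelium 5 fell and 1 rose at each age, and their summed level was 2185 to 3114 FPKM in unoperated against 1105 to 2173 FPKM in operated 6-month eyes, and 2160 to 4117 FPKM in unoperated 5-week eyes against 967 to 1735 FPKM in operated juveniles. All 7 pigment cell markers fell at 6 months and 6 of 7 in juveniles, and 4 of 5 smooth muscle markers fell at each age. Of 6 endothelial markers 4 rose and 1 fell at each age. Of 6 fibroblast markers 2 rose and 1 fell at 6 months, and 1 rose and 3 fell in juveniles. All 8 macrophage and all 4 neutrophil markers rose at both ages, with summed macrophage levels of 74.99 to 211 FPKM without and 252 to 608 FPKM with surgery at 6 months. The part of these shifts in the results was not tested.

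In unoperated eyes ALDH1A1 and CYP1B1 had the highest mean levels at both ages. ALDH1A1, a retinal dehydrogenase that is also one of the crystallins of the mammalian eye, had 222 ± 92.8 FPKM (SD, n = 7) at 5 weeks and 292 ± 91.6 FPKM (SD, n = 7) at 6 months. CYP1B1, which oxidizes steroids, retinoids and foreign aromatic compounds and is mutated in congenital glaucoma, followed with 171 ± 23.3 and 204 ± 21.5 FPKM. The mitochondrial acetaldehyde dehydrogenase ALDH2 reached 131 ± 28 and 177 ± 27.6 FPKM. CYP8B1, the sterol 12-alpha-hydroxylase known from bile acid synthesis in liver, stood at 150 ± 21.6 FPKM at 5 weeks and 85.8 ± 15.8 FPKM at 6 months. At 5 weeks the aldose reductase AKR1B1, with 143 ± 127 FPKM, and the glucuronosyltransferase UGT2C1, with 108 ± 16.2 FPKM, were also among the highest 6. Among the least abundant, CYP26A1, UGT1A7 and CYP46A1 had means of 0.793 to 2.21 FPKM in unoperated eyes, near the limit of 1 FPKM that each transcript of the deposited table exceeds in all libraries of at least 1 group. Of the 52 members 44 exceed it in all 4 groups by which the table was built, whereas UGT1A7 is in the table through operated juveniles only, CYP26A1 through unoperated 6-month eyes only and CYP46A1 through unoperated eyes only.

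CES1, a carboxylesterase that hydrolyses ester drugs and ester prodrugs, was far lower in operated eyes. In unoperated 6-month eyes it ranged from 51.4 to 91.9 FPKM with a median of 73.2, and in operated 6-month eyes from 2.50 to 10.8 FPKM with a median of 3.20. Unoperated 5-week eyes held 10.7 to 39.0 FPKM with a median of 24.7, whereas the operated 5-week libraries had 1.38, 1.63 and 1.59 FPKM and the operated 6.5-week libraries 1.26, 1.11 and 1.4 FPKM. At neither age did a library of the operated groups reach the level of any unoperated one. The log2 fold change was -3.97 ± 0.27 (SE, adjusted p = 3.12e-11) at 6 months, a 15.7-fold lower level, and -3.68 ± 0.27 (SE, adjusted p = 1.46e-10) in juveniles, 12.8-fold lower. In whole tissue, fewer cells of a type and less RNA per cell cannot be told apart. BEST2, a chloride channel that marks the nonpigmented ciliary epithelium, ran beside it from 20.6 to 29.8 FPKM in unoperated and 1.84 to 6.28 FPKM in operated 6-month eyes, and from 19.7 to 27.5 FPKM in unoperated 5-week eyes against 1.44 to 3.70 FPKM in operated juveniles. BEST2 had the largest fall of the 7 ciliary epithelium markers. Their median log2 fold change was -0.87 at 6 months and -0.82 in juveniles, and 2 of the 7 fell at least 2-fold at each age. They did not all move one way: the water channel AQP1 rose, with means of 299 and 430 FPKM at 6 months and 226 and 384 FPKM in juveniles. Both CES1 transcripts of the table were low after surgery: the curated one averaged 44.3 ± 16.7 FPKM (SD, n = 7) without and 2.96 ± 2.27 FPKM (SD, n = 6) with surgery at 6 months, and the predicted one 27.4 ± 20.5 and 1.61 ± 1.37 FPKM. The predicted one is in the table through unoperated eyes alone, which favours a lower level after surgery, and it is part of the summed CES1 level tested above. Without the 8 libraries over 1000 FPKM of CRYAA the log2 fold changes were -3.86 at 6 months and -3.54 in juveniles. Reads may be shared with other carboxylesterase copies, which would touch the level.

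**Figure D1:**
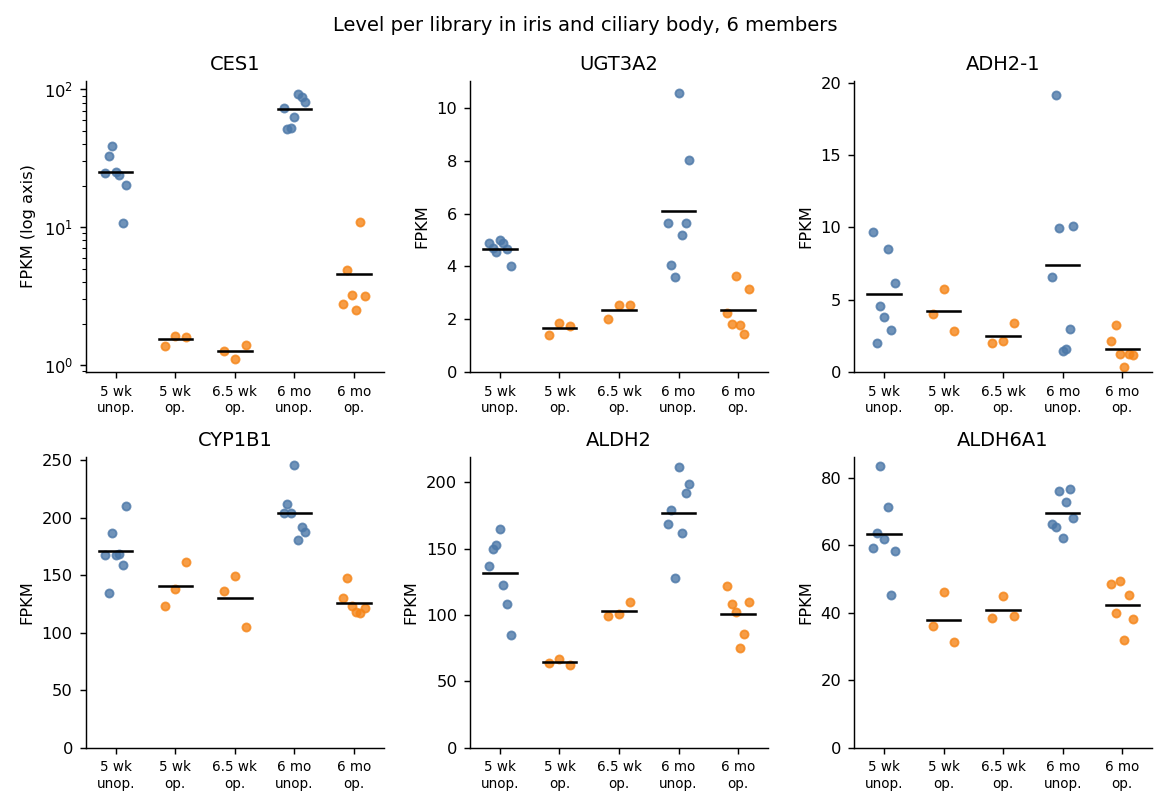
Level of CES1, UGT3A2, ADH2-1, CYP1B1, ALDH2 and ALDH6A1 in each library, in FPKM (log axis for CES1), by age in weeks (wk) or months (mo), with unoperated (unop.) groups in blue and operated (op.) groups in orange. Points are libraries and bars are group means. CES1 lies at 10.7 FPKM or more in every unoperated library of 5 weeks and at 1.63 FPKM or less in every operated juvenile one.

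After surgery more of the enzymes were lower than higher. At 6 months 22 members fell and 4 rose (50% of the 52), beside 46.1% of all genes called. By direction, 42.3% of members fell beside 30.1% of all genes, and 7.69% rose beside 16.0%. In juveniles 17 fell and 6 rose (44.2%), beside 37.3% of all genes. There, 32.7% of members fell beside 20.8% of all genes, and 11.5% rose beside 16.5%. The share called was thus close to that of all genes, with more falls and fewer rises. Without the 8 CRYAA-rich libraries the counts were 23 lower and 4 higher at 6 months, but 9 lower and 2 higher in juveniles. That left 6 unoperated and 4 operated libraries at 6 months, and 3 unoperated 5-week and 5 operated juvenile ones. The juvenile set was not free of lens transcript. CRYAA stood at 835, 0.83 and 0.11 FPKM in its unoperated libraries and at 15.5 to 818 FPKM in its operated ones. The share of all genes called in this smaller set was not determined, so the part of fewer libraries in the lower juvenile counts was not tested. The juvenile calls not made then included ALDH1A3, ALDH5A1, ALDH16A1, AKR1B10, CYP1B1, CYP2J1, CYP2S1, CYP2U1, CYP4V2, CYP20A1 and DHRS4. Each of these kept its direction (adjusted p from 0.0629 to 0.538). The list is not complete for the falls, as the lower count dropped further than the falls named here. The median log2 fold change of the members was -0.25 at 6 months and -0.19 in juveniles, beside -0.11 and -0.06 over all genes. Scaling moved the split: the members stood at 7 higher and 17 lower at 6 months with median-ratio factors, and at 3 higher and 24 lower in juveniles when every library was scaled to the same sum. Of all genes called, 34.8% were higher at 6 months, against 19.1% with equal sums and 51.6% with median-ratio factors, and in juveniles 44.3% against 24.9% with equal sums. Equal sums also moved the median of all genes to -0.24 at 6 months and -0.18 in juveniles.

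The 2 surgery comparisons share no library. The enzymes that fell at both ages were CES1, UGT3A2, FMO1, CYP1B1, CYP20A1, AKR1B10, RDH14, ALDH2, ALDH4A1, ALDH5A1, ALDH6A1, ALDH7A1 and ALDH9A1. With CYP46A1, for which the way it entered the table favours a fall, the count is 14. These 14 are 63.6% of the 22 that fell at 6 months and 82.4% of the 17 that fell in juveniles, beside 55.1% and 79.7% for all genes that fell. ALDH1A2, CYP2J1 and DHRS4 rose at both ages, 75% of the 4 and 50% of the 6, beside 74.1% and 71.9% for all genes that rose, and no member was called in opposite directions. CYP26A1, CYP46A1 and UGT1A7 are in the table through 1 treatment alone. Among the 49 members without these, 21 fell and 4 rose at 6 months, 16 fell and 5 rose in juveniles, and 13 fell at both ages. Most of these changes were under 2-fold: 4 members fell at least 2-fold at 6 months (CES1, ADH2-1, UGT3A2 and ADH1A) and 2 in juveniles (CES1 and UGT3A2), and none rose as much. Of all 12948 genes, 316 fell and 596 rose at least 2-fold at 6 months, and 228 fell and 641 rose in juveniles.

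**Figure D2:**
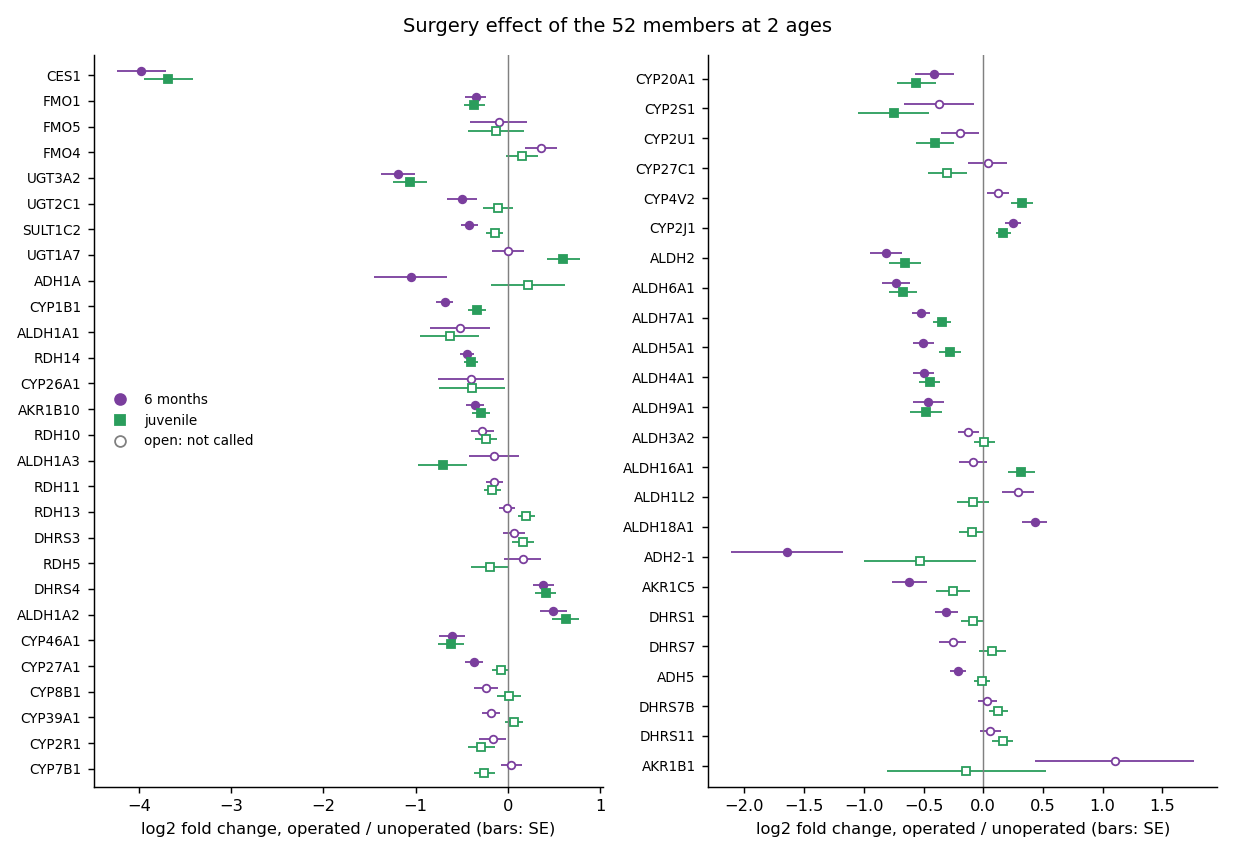
Log2 fold change of operated over unoperated eyes for each of the 52 members, at 6 months (purple circles) and in juveniles (green squares), with bars of 1 SE; filled symbols passed an adjusted p of 0.05 and the scales of the 2 panels differ. Members are ordered by role, from ester hydrolysis to alcohol dehydrogenases and reductases, and CES1 stands apart at -3.97 and -3.68.

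Among the 4 conjugating enzymes UGT3A2, which attaches glucose and xylose rather than glucuronic acid, showed the largest fall. It ranged from 3.59 to 10.6 FPKM (median 5.63) in unoperated and 1.45 to 3.65 FPKM (median 2.03) in operated 6-month eyes, where only the lowest unoperated and the highest operated library overlapped. In unoperated 5-week eyes it ranged from 4.02 to 5.00 FPKM (median 4.71), above the 1.42, 1.85 and 1.73 FPKM of operated 5-week and the 2.02, 2.52 and 2.52 FPKM of operated 6.5-week libraries. The log2 fold changes were -1.19 ± 0.19 (SE, adjusted p = 1.64e-05) and -1.06 ± 0.19 (SE, adjusted p = 8.28e-05). UGT2C1, a glucuronosyltransferase, fell at 6 months by 0.50 on the log2 scale, from 44.0 to 74.1 FPKM (median 55.5) without surgery to 29.2 to 56.5 FPKM (median 43.7), with overlapping groups (adjusted p = 0.0135). The sulfotransferase SULT1C2 was likewise lower in operated 6-month eyes, 15.0 to 20.6 against 17.7 to 28.4 FPKM. UGT1A7, which glucuronidates phenols, ranged from 0.52 to 1.31 FPKM in unoperated 5-week eyes and 1.19 to 1.65 FPKM in operated juveniles. It is in the table through operated juveniles alone, which favours a higher level there, so no test of it is given. Members of the UGT1A cluster share their last exons, so its reads may be split between them. Of the 3 flavin monooxygenases, which oxidize nitrogen and sulfur, FMO1 fell at both ages, from means of 4.44 to 3.39 FPKM at 6 months and 5.12 to 3.86 FPKM in juveniles. Its call at 6 months was lost without operated replicate 4 (adjusted p = 0.0529), and FMO4 and FMO5 were called at neither age.

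Of the 14 enzymes of retinoid metabolism 4 fell and 2 rose at each age, 42.9% called, which is near the 46.1% of all genes at 6 months and the 37.3% in juveniles. ALDH1A2, which makes retinoic acid from retinal, was the member with the largest rise at each age. In 6-month eyes it ranged from 47.5 to 59.4 FPKM (median 50.5) without and 65.1 to 82.3 FPKM (median 73.5) with surgery, with no overlap. In 5-week unoperated eyes it ranged from 21.1 to 47.5 FPKM (median 43.1), in operated 5-week eyes it was 40.04, 43.7 and 62.4 FPKM, and at 6.5 weeks 87.7, 62.8 and 57.8 FPKM, so that 2 of the 6 operated libraries lay within the unoperated range. The log2 fold changes were 0.49 ± 0.15 (SE, adjusted p = 0.00858) and 0.63 ± 0.15 (SE, adjusted p = 0.0015). The other retinal dehydrogenases did not share this direction. ALDH1A1 ranged from 147 to 431 FPKM without and 113 to 433 FPKM with surgery at 6 months, with log2 fold changes of -0.52 ± 0.32 (SE, adjusted p = 0.194) and -0.63 ± 0.32 (SE, adjusted p = 0.13). Without the 8 libraries rich in CRYAA its value at 6 months was -0.87 (adjusted p = 0.027), and in juveniles it passed the test without unoperated replicate 6 or operated 5-week replicate 1 (adjusted p down to 0.0372). ALDH1A3 ranged from 67.9 to 153 FPKM in unoperated 5-week eyes and 41.9 to 89.5 FPKM in operated juveniles, a fall of 0.71 on the log2 scale (adjusted p = 0.0399). That call was lost on leaving out unoperated replicate 1, 2, 5 or 6, operated 5-week replicate 1 or 3, or operated 6.5-week replicate 1 or 2 (adjusted p up to 0.111), and at 6 months the value was -0.15 (adjusted p = 0.668).

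CYP1B1 and the retinol dehydrogenase RDH14 were the retinoid enzymes with the smallest p at 6 months and in juveniles, respectively. CYP1B1 ranged from 181 to 246 FPKM (median 204) without and 117 to 147 FPKM (median 123) with surgery at 6 months, with no overlap and a log2 fold change of -0.69 ± 0.10 (SE, adjusted p = 3.34e-06). In juveniles the ranges of 135 to 210 and 105 to 161 FPKM overlapped, and it fell by 0.33 on the log2 scale (adjusted p = 0.00777), a call not made without the 8 CRYAA-rich libraries (-0.30, adjusted p = 0.101). RDH14 fell from 17.1 to 19.1 FPKM to 11.3 to 14.6 FPKM at 6 months, and from 13.5 to 17.9 FPKM to 10.8 to 13.3 FPKM in juveniles. Its groups overlapped at neither age, and the log2 fold changes were -0.44 and -0.40 (adjusted p = 4.21e-05 and 0.000173). AKR1B10, a reductase that returns retinal to retinol, fell by 0.36 at 6 months and by 0.29 in juveniles. In juveniles it no longer passed without unoperated replicate 3 or 7, operated 5-week replicate 3 or operated 6.5-week replicate 2 (adjusted p up to 0.0864). DHRS4, which reduces carbonyl compounds and retinal, rose at both ages, with log2 fold changes of 0.38 ± 0.11 (SE, adjusted p = 0.00617) and 0.41 ± 0.11 (SE, adjusted p = 0.00497). Its means were 28.3 ± 3.54 (SD, n = 7) and 37.4 ± 6.98 FPKM (SD, n = 6) at 6 months, and the ranges overlapped. The juvenile rise was not called without the CRYAA-rich libraries (0.27, adjusted p = 0.229).

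ADH1A, a retinol-oxidizing alcohol dehydrogenase, ranged from 2.91 to 22.3 FPKM (median 10.1) in unoperated and 1.94 to 8.71 FPKM (median 3.04) in operated 6-month eyes. It fell at 6 months by 1.05 on the log2 scale (adjusted p = 0.0335), and no longer passed when 1 of these libraries was dropped: replicates 1, 2, 3 and 7 of the unoperated and 1, 2, 3 and 4 of the operated group (highest adjusted p 0.0809). The value was -0.73 (adjusted p = 0.281) without the CRYAA-rich libraries. In juveniles the value was 0.22 ± 0.40 (SE, adjusted p = 0.701). CYP26A1, which breaks down retinoic acid, ranged from 1.07 to 2.83 FPKM without and 0.35 to 5.02 FPKM with surgery at 6 months, and from 0.81 to 2.59 FPKM in unoperated 5-week eyes and 0.22 to 2.07 FPKM in operated juveniles. The groups overlapped at both ages, and no test is given because CYP26A1 is in the table through unoperated 6-month eyes alone. RDH10, the retinol dehydrogenase needed for retinoic acid synthesis in the embryo, had -0.28 (adjusted p = 0.0657) and -0.24 (adjusted p = 0.125). Dropping unoperated replicate 2, or replicate 2 or 6 of the operated group, brought it past the test at 6 months (lowest adjusted p 0.034). RDH5, RDH11, RDH13 and DHRS3 were called at neither age.

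Around these enzymes, 22 carriers, receptors and targets of retinoids were measured, of which 6 rose and 5 fell at each age (50%, beside 46.1% and 37.3% of all genes). CRABP1, a cytoplasmic carrier of retinoic acid, was the one with the largest rise, from 2.51 to 5.61 FPKM to 16.3 to 49.1 FPKM at 6 months and from 3.66 to 6.41 FPKM to 37.4 to 54.0 FPKM in juveniles, with no overlap. Its log2 fold changes were 2.73 ± 0.19 (SE, adjusted p = 6.82e-11) and 3.15 ± 0.19 (SE, adjusted p = 6.65e-12). CRABP2, the related carrier that hands retinoic acid to its receptors, fell by 0.70 at 6 months and by 1.17 in juveniles (adjusted p = 0.00436 and 3.29e-05). The retinoic acid receptor RARA rose by 0.34 and 0.54. BCO2, which cleaves carotenoids, fell by 0.73 and 0.46, and RARRES1, a gene induced by retinoids, by 0.69 and 0.70. The juvenile falls of BCO2 and RARRES1 were not called without the CRYAA-rich libraries (adjusted p = 0.0632 and 0.0743).

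Of the 6 cytochromes of sterol and vitamin D metabolism 2 were called at 6 months and 1 in juveniles, all lower, CYP46A1 being counted at both ages. These are 33.3% and 16.7%, beside 30.1% and 20.8% of all genes lower and 46.1% and 37.3% called. CYP46A1, which hydroxylates cholesterol for export from the brain, ranged from 1.30 to 1.98 FPKM without and 0.62 to 1.30 FPKM with surgery at 6 months, where the groups met at 1 value. In unoperated 5-week eyes it ranged from 1.08 to 1.67 FPKM and in operated juveniles from 0.33 to 1.05 FPKM, without overlap. CYP46A1 is in the table through unoperated eyes alone, which favours a lower level after surgery. Its calls are therefore only part of the counts and are not read as a result, and no fold change or p is given. CYP27A1, the sterol 27-hydroxylase, had means of 53.9 FPKM without and 41.7 FPKM with surgery at 6 months, a fall. CYP8B1, CYP39A1, CYP7B1 and the vitamin D hydroxylase CYP2R1 were called at neither age. Of the 6 remaining cytochromes 1 rose and 1 fell at 6 months (33.3%, beside 46.1% of all genes called). In juveniles 2 rose and 3 fell (83.3%, beside 37.3%), and these 5 calls were not made without the CRYAA-rich libraries. The fatty acid epoxygenase CYP2J1 rose by 0.25 on the log2 scale at 6 months (adjusted p = 0.00344), from a median of 34.0 to 39.1 FPKM. CYP4V2, a fatty acid hydroxylase mutated in a crystalline retinal dystrophy, rose in juveniles by 0.33 (adjusted p = 0.00604), with ranges of 19.2 to 26.2 and 23.6 to 36.6 FPKM. CYP20A1, a cytochrome without a known substrate, fell in juveniles by 0.56 (adjusted p = 0.00963). Its fall at 6 months was lost without any 1 of 10 of the 13 libraries, all but unoperated replicate 6 and operated replicates 1 and 3 (adjusted p up to 0.133).

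Juvenile calls for 3 low or little-changed cytochromes depended on single libraries. CYP2S1 fell by 0.75 (adjusted p = 0.0487), from 2.36 to 3.59 FPKM to 0.86 to 2.70 FPKM, and lost its call without unoperated replicate 1, 2, 4, 5, 6 or 7, operated 5-week replicate 3 or operated 6.5-week replicate 1 or 2 (adjusted p up to 0.145). CYP2U1 fell by 0.41 (adjusted p = 0.0458) and lost it without unoperated replicate 2, 3, 4 or 7, operated 5-week replicate 1 or 2 or operated 6.5-week replicate 1 or 3 (adjusted p up to 0.156). CYP2J1 rose by 0.17 (adjusted p = 0.0448) and lost it without unoperated replicate 1, 2, 3, 6 or 7, operated 5-week replicate 2 or 3 or operated 6.5-week replicate 2 or 3 (adjusted p up to 0.143).

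Of the 10 aldehyde dehydrogenases outside retinoid metabolism 6 fell and 1 rose at each age. The 6 are 60% of the group, beside 30.1% of all genes lower at 6 months and 20.8% in juveniles. Their summed level was 407 to 491 FPKM without and 256 to 374 FPKM with surgery at 6 months, and 351 to 459 FPKM in unoperated 5-week eyes against 262 to 346 FPKM in operated juveniles, with no overlap at either age. ALDH2 ranged from 128 to 212 FPKM (median 179) without and 75.4 to 122 FPKM (median 105) with surgery at 6 months. In juveniles it ranged from 85.1 to 165 FPKM (median 137) in unoperated eyes, was 63.9, 67.0 and 61.9 FPKM in operated 5-week eyes, and 99.2, 101 and 109 FPKM at 6.5 weeks, so that only the 6.5-week libraries overlapped. The log2 fold changes were -0.82 ± 0.13 (SE, adjusted p = 2.79e-05) and -0.66 ± 0.13 (SE, adjusted p = 0.000411). ALDH6A1, of valine breakdown, fell from 62.1 to 76.7 FPKM to 31.9 to 49.3 FPKM at 6 months with no overlap, and the log2 fold changes were -0.73 and -0.67 (adjusted p = 1.94e-05 and 6.58e-05). ALDH7A1, of lysine breakdown, fell from 75.3 to 88.5 FPKM to 49.7 to 69.8 FPKM, again with no overlap, by 0.52 at 6 months and by 0.34 in juveniles. ALDH5A1, which oxidizes succinic semialdehyde from GABA, fell by 0.50 and 0.28. Its juvenile call was lost without operated 5-week replicate 1 (adjusted p = 0.0538). ALDH9A1, of carnitine synthesis, fell in juveniles by 0.48, from 49.2 to 98.1 FPKM to 39.8 to 46.5 FPKM, with no overlap.

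A pair of proline enzymes moved apart at 6 months. ALDH4A1, which degrades proline, fell by 0.50 on the log2 scale (adjusted p = 7.21e-05), from 10.1 to 13.4 FPKM to 6.98 to 9.41 FPKM. ALDH18A1, which makes it, rose with a log2 fold change of 0.43 ± 0.11 (SE, adjusted p = 0.0018), from 11.9 to 17.9 FPKM to 17.97 to 21.7 FPKM. In both the groups did not overlap. In juveniles ALDH4A1 fell by 0.45 (adjusted p = 0.000289), and ALDH18A1 ranged from 16.9 to 24.1 FPKM in unoperated and 15.3 to 22.0 FPKM in operated eyes. ALDH16A1, the other member of this group that rose, did so in juveniles by 0.32 (adjusted p = 0.0311). It lost its call without unoperated replicate 2, 3 or 5, operated 5-week replicate 1 or operated 6.5-week replicate 3 (adjusted p up to 0.107).

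Of the 8 remaining alcohol dehydrogenases and reductases 4 fell and 0 rose at 6 months (50%, beside 30.1% of all genes lower and 46.1% called). In juveniles 0 were called, beside 37.3% of all genes, and 0 had an unadjusted p under 0.05 (limma). ADH2-1, an alcohol dehydrogenase, ranged from 1.46 to 19.2 FPKM (median 6.6) in unoperated and 0.32 to 3.24 FPKM (median 1.25) in operated 6-month eyes. These groups overlapped, and the log2 fold change was -1.64 ± 0.47 (SE, adjusted p = 0.00638). AKR1C5, of the hydroxysteroid dehydrogenase family, fell by 0.62 (adjusted p = 0.00122), from 4.32 to 6.38 FPKM to 2.39 to 4.6 FPKM. DHRS1 and ADH5, the formaldehyde dehydrogenase, also fell at 6 months, with means of 55.5 and 44.8 FPKM for DHRS1 and 76.5 and 66.1 FPKM for ADH5.

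AKR1B1, aldose reductase, which turns glucose to sorbitol and is abundant in lens, was the member whose median differed most between CRYAA-rich and other libraries. It ranged from 25.7 to 302 FPKM over the 26 libraries and passed the test in no comparison; the log2 fold change at 6 months was 1.10 ± 0.67 (SE, adjusted p = 0.184). All 6 libraries over 200 FPKM, at 214 to 302 FPKM, were among the 8 with over 1000 FPKM of CRYAA, and the other 20 libraries held 25.7 to 142 FPKM. The remaining CRYAA-rich libraries, unoperated 5-week replicate 5 and unoperated 6-month replicate 3, had 34.9 and 33.7 FPKM of AKR1B1 at 1195 and 1315 FPKM of CRYAA. The median of AKR1B1 was 240 FPKM in the 8 CRYAA-rich libraries and 33.3 FPKM in the other 18, a ratio of 7.20. For the next members by this ratio, CES1, CYP26A1 and ALDH1A1, it was 2.05, 1.83 and 1.68, with group makeup unequal between the 2 sets.

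**Figure D3:**
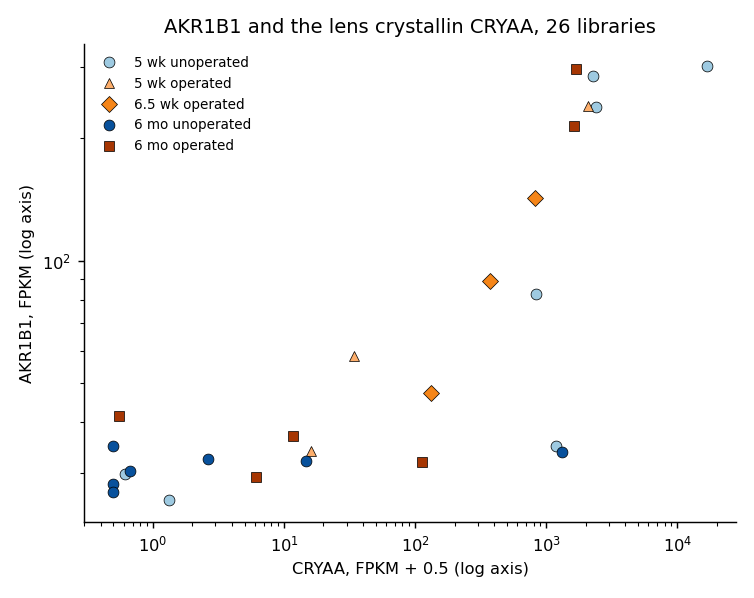
Level of AKR1B1 against that of the lens crystallin CRYAA in each of the 26 libraries, both in FPKM on log axes (0.5 added to CRYAA), with a symbol for each group. The 6 libraries with 214 FPKM or more of AKR1B1 all lie above 1000 FPKM of CRYAA, and 2 other libraries above that level hold 33.7 and 34.9 FPKM.

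Of 27 measured partners in handling foreign compounds (transporters, conjugation partners, regulators and electron donors), 4 rose and 11 fell at 6 months, and 6 rose and 8 fell in juveniles (55.6% and 51.9% called, beside 46.1% and 37.3% of all genes). EPHX1, the microsomal epoxide hydrolase that acts on products of cytochromes P450, fell from 275 to 355 FPKM to 117 to 286 FPKM at 6 months, with log2 fold changes of -0.78 ± 0.14 (SE, adjusted p = 9.17e-05) and -0.75 ± 0.14 (SE, adjusted p = 0.000183). The prostaglandin transporter SLCO2A1 rose from 3.70 to 5.46 FPKM to 11.01 to 15.5 FPKM at 6 months and from 4.53 to 8.17 FPKM to 14.6 to 25.6 FPKM in juveniles, with no overlap (log2 fold changes 1.46 and 1.63). The export pump ABCC3, which carries glucuronides, rose by 1.03 and 1.36. The uptake transporter SLCO1A2 fell by 1.25 and 1.19 on the log2 scale (adjusted p = 1.29e-05 and 2.94e-05) when its transcripts were summed, but the most abundant transcript alone gave 0.01 at 6 months (adjusted p = 0.99) and -1.17 in juveniles (adjusted p = 0.128).

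The surgery effects at the 2 ages were not told apart for any member: 0 of 52 passed the test of the difference (limma), beside 1.09% of all genes, and 9 had an unadjusted p under 0.05 (17.3%, beside 12.9% of all genes). ALDH18A1 came nearest, with a difference of 0.53 ± 0.15 (SE, adjusted p = 0.096) between its effect at 6 months and in juveniles, and for CES1 the difference was -0.29 ± 0.37 (SE, adjusted p = 0.793). Operated eyes of 6.5 and of 5 weeks, with 3 libraries each, also gave 0 called members (limma), beside 0.0154% of all genes (0.00772% in each direction). There, 8 members had an unadjusted p under 0.05 (15.4%, beside 10.3% of all genes). A p above the threshold does not show that the groups act alike.

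Age moved several enzymes in unoperated eyes. From 5 weeks to 6 months 11 members rose and 6 fell (32.7%), beside 20.8% of all genes; 21.2% of members rose beside 11.4% of all genes, and 11.5% fell beside 9.46%. The median log2 fold change was 0.14 for the members and 0.04 for all genes. Scaling changed this split, to 7 higher and 7 lower with equal sums and to 8 higher and 7 lower with either median-ratio or upper-quartile factors. Of all genes called, 54.6% were higher, against 34.6% with equal sums and 38.9% with upper-quartile factors. The 5-week group also holds 4 of the 8 CRYAA-rich libraries: without those 8, which leaves 3 against 6, 3 members rose (CES1, ALDH2 and RDH10) and 2 fell (CYP8B1 and UGT2C1). Cell type markers differed with age too. Of 6 fibroblast markers 3 fell and 1 rose, and their summed level was 4834 to 5499 FPKM at 5 weeks and 2710 to 3238 FPKM at 6 months. Of 7 pigment cell markers 3 fell and 0 rose, and of 5 smooth muscle markers 3 rose and 0 fell. Of 8 macrophage markers 3 rose and 0 fell, and of 6 endothelial markers 1 rose and 2 fell. Of 7 ciliary epithelium markers 1 rose and 1 fell, and of 4 corneal and conjunctival epithelium markers 1 rose and 0 fell. The part of these age shifts in the results was not tested.

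CES1 again showed the largest change, with a log2 fold change of 1.54 ± 0.25 (SE, adjusted p = 0.000164), and its highest 5-week library, at 39.0 FPKM, lay below the lowest 6-month one, at 51.4 FPKM. CYP8B1 fell by 0.81 on the log2 scale (adjusted p = 8.56e-05), from 109 to 172 FPKM (median 153) at 5 weeks to 62.1 to 106 FPKM (median 87.5) at 6 months. UGT2C1 fell by 0.88 (adjusted p = 0.000302), from 79.6 to 125 FPKM (median 111) to 44.0 to 74.1 FPKM. SULT1C2 fell by 0.53 (adjusted p = 0.000217), from 28.6 to 36.8 FPKM (median 34.2) to 17.7 to 28.4 FPKM (median 24.0). In these 4 enzymes the 2 ages did not overlap, although the call of SULT1C2 was not made without the CRYAA-rich libraries (-0.47, adjusted p = 0.0502). RDH5, the 11-cis-retinol dehydrogenase of the visual cycle, fell from 11.6 to 22.5 FPKM to 4.62 to 10.1 FPKM, and CYP27C1, which makes the red-shifted form of vitamin A, from 4.03 to 8.27 FPKM to 2.25 to 3.40 FPKM. Their log2 fold changes were -0.85 and -0.69 (adjusted p = 0.00295 and 0.00317), or -0.71 and -0.41 (adjusted p = 0.142 and 0.145) without the CRYAA-rich libraries. ALDH18A1 fell by 0.42 (adjusted p = 0.00423), or by 0.23 (adjusted p = 0.342) without them.

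**Figure D4:**
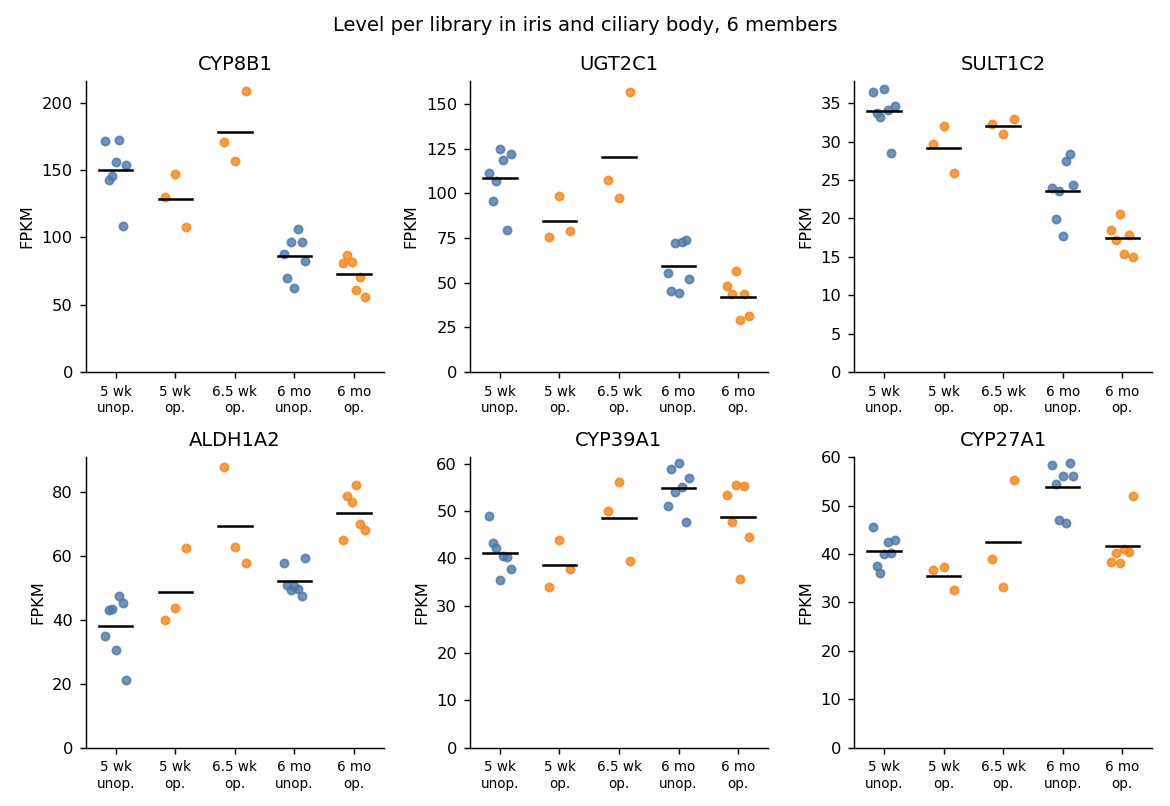
Level of CYP8B1, UGT2C1, SULT1C2, ALDH1A2, CYP39A1 and CYP27A1 in each library, in FPKM on axes from 0, by age and treatment (unoperated in blue, operated in orange). Points are libraries and bars are group means; CYP8B1 stands at 109 FPKM or more at 5 weeks and at 106 FPKM or less at 6 months in unoperated eyes.

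The rises with age were smaller. ALDH1A2 rose by 0.49 on the log2 scale (adjusted p = 0.0145) and ALDH2 by 0.44 (adjusted p = 0.0161). The ranges of ALDH1A2, 21.1 to 47.52 FPKM at 5 weeks and 47.53 to 59.4 FPKM at 6 months, all but met. The oxysterol hydroxylase CYP39A1 rose by 0.41 (adjusted p = 0.00356), CYP27A1 by 0.40 (adjusted p = 0.00284), DHRS7 by 0.40, AKR1B10 by 0.33 and CYP4V2 by 0.32. Without the CRYAA-rich libraries these 5, and ALDH1A2, were not called (log2 fold changes of 0.16 to 0.44), and the call of ALDH2 was lost without the 3 libraries numbered last (0.28, adjusted p = 0.107). Single libraries decided 3 further rises. RDH10 rose by 0.36 (adjusted p = 0.032), a call lost without 5-week replicate 1, 3, 5, 6 or 7 or 6-month replicate 4, 5, 6 or 7 (adjusted p up to 0.0793). CYP1B1 rose by 0.26 (adjusted p = 0.046), lost without 5-week replicate 1, 2, 4, 5 or 6 or 6-month replicate 1, 2, 3 or 4 (adjusted p up to 0.113). RDH14 rose by 0.21 (adjusted p = 0.0402), lost without 5-week replicate 1, 2, 4 or 5 or any 6-month replicate but 3 (adjusted p up to 0.0947). Among the partners, 4 of 22 retinoid genes rose with age and 0 fell, RBP4, the retinol carrier of plasma, by 0.95 (adjusted p = 0.0128), and 6 of 27 partners in handling foreign compounds rose and 2 fell. These are 18.2% and 29.6% called, beside 20.8% of all genes.

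In operated eyes fewer members differed between 6 months and juveniles: 2 rose and 3 fell (9.62%), below the 15.7% of all genes. By direction 3.85% of members rose beside 5.88% of all genes and 5.77% fell beside 9.78%. With median-ratio factors the split was 5 higher and 3 lower, and with equal sums 2 higher and 5 lower. Of all genes called, 37.5% were higher, against 14.2% with equal sums and 51.8% with median-ratio factors. CES1 rose by 1.25 ± 0.28 on the log2 scale (SE, adjusted p = 0.00318), from 1.63 FPKM or less to 2.50 FPKM or more. The oxysterol hydroxylase CYP7B1 rose by 0.56 (adjusted p = 0.00258), from 3.19 to 5.35 FPKM to 4.97 to 8.75 FPKM, or by 0.44 (adjusted p = 0.0663) without the CRYAA-rich libraries. UGT2C1 fell by 1.27 (adjusted p = 1.73e-05), from 75.6 to 157 FPKM to 29.2 to 56.5 FPKM. CYP8B1 fell by 1.06 (adjusted p = 1.62e-05), from 108 to 208 FPKM to 55.4 to 86.6 FPKM. SULT1C2 fell by 0.80 (adjusted p = 7.21e-06), from 25.95 to 33.0 FPKM to 15.0 to 20.6 FPKM. In these 3 enzymes and in CES1 operated eyes of the 2 ages did not overlap, as was the case in unoperated eyes. No library is common to the 2 age comparisons. These enzymes were named because they were called, and the share of all genes without overlap in both comparisons was not determined.

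**Figure D5:**
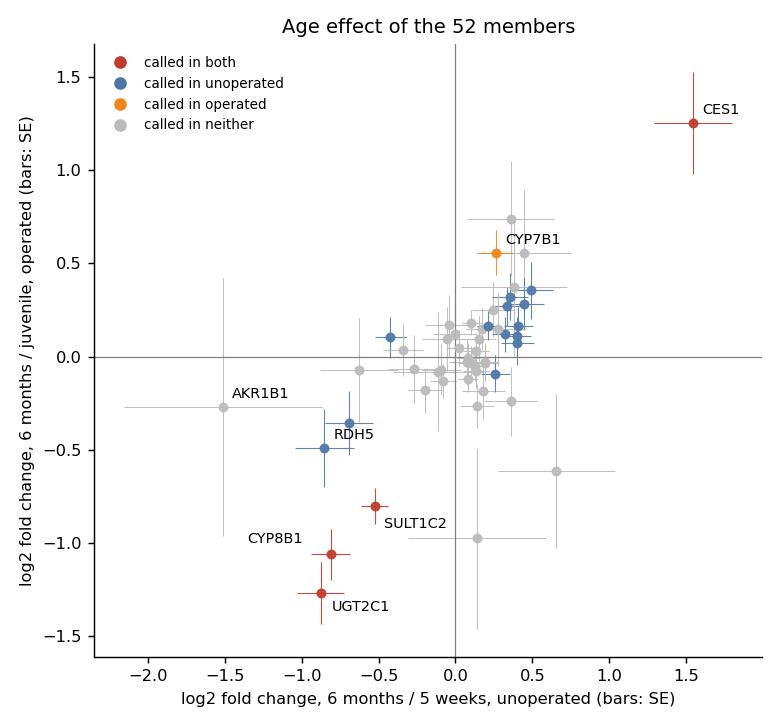
Log2 fold change with age of each of the 52 members, 6 months over 5 weeks in unoperated eyes (x axis) and 6 months over juveniles in operated eyes (y axis), with bars of 1 SE and colours for the comparisons in which a member passed the test. CES1 (1.54 and 1.25) lies at the upper right, and UGT2C1, CYP8B1 and SULT1C2 at the lower left.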

How the data were processed

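RNA of 26 iris and ciliary body libraries was analysed; the 23 cornea samples were not analysed here. The deposited table gives FPKM per RefSeq transcript, per the file headers. Tools listed in the submitters' processing notes, with no role stated, were RSEM 1.2.12, Bowtie2 2.2.5, HISAT2 2.0.4 and HISAT. For the genome build, the sources used here give none. All 16725 transcripts are over 1 FPKM in every library of 1 or more of 4 groups (operated juveniles, unoperated 5-week, operated and unoperated 6-month), so a gene low everywhere cannot be seen. No read counts were used and the depth is unknown.

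FPKM were summed per symbol to 12948 genes. Of 1880 symbols that were locus numbers or dates, 405 were renamed by gene ID or accession through the RefSeq table of mOryCun1.1, only where no genes merged. Among these symbols, 12 loci described as such enzymes, sulfotransferases and a carboxylesterase among them, are not members. They had no symbol or, like ST1A8 and SDR16C5, a symbol outside the rule. The design had renaming as an alternative only, but the choice of members needed it. With limma 3.58.1 (R 4.3.3), log2(FPKM + 0.5), which understates changes of low genes, was fitted with 1 mean per group over all libraries, with robust, trended variance moderation and Benjamini-Hochberg adjustment over all genes; rose, fell and called mean an adjusted p under 0.05. The 6 comparisons were surgery at each age, their difference, age in unoperated and in operated eyes, and 6.5 against 5 weeks. The fit was tested on simulated data.

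Members, lists and tests were chosen with earlier results of these data known. Any member could be named with its level; folds and tests were given for up to 12 called members with the largest change in each direction and comparison, for CES1, for retinoid enzymes in the surgery and unoperated age comparisons, and for up to 6 partners or markers per list with the smallest p. Genes named beyond this rule were chosen after their values were seen. Alternatives were 2 pseudocounts, a filter at a mean of 2 FPKM, 3 scalings, plain moderation, only the groups compared, 1 transcript per gene, other naming, each library left out, the 3 libraries numbered last or the 8 over 1000 FPKM of CRYAA left out, and each juvenile operated group alone.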

Additional observations from a re-analysis of the deposited data

Results flagged for a closer look

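In groups of 6 or 7 libraries, 156 pairs of a member and a group were searched for a highest or lowest library that stood off from the rest by Dixon's criterion, and 15 did. Chance flags about 1 in 20 such groups. Unoperated 5-week libraries gave 10 of them. Replicate 7 had 8.27 FPKM of CYP27C1 (others 4.03 to 5.38), 22.5 FPKM of RDH5 (others 11.6 to 14.8) and 4.02 FPKM of UGT3A2 (others 4.56 to 5.00). Replicate 6 had 109 FPKM of CYP8B1 (others 143 to 172) and 28.6 FPKM of SULT1C2 (others 33.2 to 36.8), the enzymes that fell with age. Replicate 2, the library with the most CRYAA, had 98.1 FPKM of ALDH9A1 (others 49.2 to 62.2) and 30.4 FPKM of RDH10 (others 15.2 to 19.6). Replicate 1 had 3.41 FPKM of CYP2R1 (others 1.42 to 2.09), replicate 3 had 2.36 FPKM of CYP2S1 (others 3.14 to 3.59) and replicate 4 had 4.45 FPKM of CYP7B1 (others 5.29 to 5.85).

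In unoperated 6-month eyes replicate 7 had 1.77 FPKM of ALDH1L2 (others 2.34 to 2.85), replicate 1 had 1.07 FPKM of CYP26A1 (others 2 to 2.83) and replicate 6 had 0.96 FPKM of CYP2S1 (others 3.98 to 6.72). In operated 6-month eyes replicate 6 had 51.9 FPKM of CYP27A1 (others 38.2 to 41.1) and replicate 1 had 21.4 FPKM of DHRS3 (others 30.2 to 37.0).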

How the results depend on the processing

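Counts of members called changed by over 1.5 times under these settings. Scaling to equal sums left 2 higher at 6 months, 3 higher in juveniles, 7 higher with age in unoperated eyes and 5 lower with age in operated eyes. Median-ratio factors gave 7 higher at 6 months and 5 higher with age in operated eyes. Without the CRYAA-rich libraries, 2 were higher and 9 lower in juveniles, 3 higher and 2 lower with age in unoperated eyes, and 1 higher with age in operated eyes. Without the 3 libraries numbered last, 11 were lower in juveniles and 4 higher with age in operated eyes. Operated 5-week libraries alone gave 2 higher in juveniles and 5 higher with age in operated eyes. Fitting only the groups compared gave 1 higher with age in operated eyes. With symbols as deposited, an alternative chosen after seeing the data that leaves 39 members, 11 were lower in juveniles, 7 higher with age in unoperated eyes and 0 higher with age in operated eyes (limma). The most abundant transcript of SLCO1A2 gave a log2 fold change of 0.0117 at 6 months, and operated 6.5-week libraries alone gave -0.31 for ADH1A in juveniles; the cause was not tested. Leaving out 1 library gave 4 to 5 higher and 19 to 23 lower at 6 months, 4 to 7 and 14 to 18 in juveniles, 8 to 10 and 6 to 7 with age in unoperated eyes, and 2 to 3 and 3 to 4 in operated eyes. No paired analysis was possible because the groups share no replicate numbers in the labels. The depth behind each value is unknown, so the precision of low levels rests on the spread between libraries.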
